A study of Mus musculus with 5 samples.

Results

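The major urinary protein (Mup) genes encode small lipid-binding proteins that mouse liver makes in large amounts. Mup3, Mup7, Mup11, Mup16, Mup17, Mup18 and Mup20 were described here in hepatocytes across liver regeneration. They are 7 of the 21 genes named Mup with a number, out of 31053 genes in the count tables. They were picked because their levels in these same libraries stood below the adult control after surgery, so their levels and ratios are a description with no test. Hepatocytes were barcodes with at least 5000 unique molecular identifiers (UMIs, each a captured transcript molecule), 10 to 30% of UMIs from mitochondrial genes, and at least 1% of UMIs from Alb, Apoa1 and Ttr. That gave 925 hepatocytes in the adult control and 1170, 719 and 771 at 24, 48 and 96 h after surgery, 3585 adult cells in all.

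The study followed mouse liver after partial hepatectomy (PHx), removal of 2/3 of the liver, after which the remaining tissue grows back. Liver cells of C57BL/6J mice were freed by a 2-step perfusion, passed over a kit that removes dead cells, and profiled with 10x v3 single-cell RNA sequencing. The groups were an adult control, adults at 24, 48 and 96 h after PHx, all at 8 weeks of age, and postnatal day 14 (P14) mice without surgery. Each group was 1 library. The number and sex of the animals behind a library were not given in the sources used here. No test across animals was therefore possible, and each interval below covers counting error only. The title and source of the control library call it a control, while the treatment text counts it among the operated samples. It is treated as the unoperated control here, and its description carries the code L002 where the other 4 carry L001, so that code and the comparison with the control cannot be told apart.

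Major urinary proteins belong to the lipocalins, barrel-shaped carriers of small hydrophobic molecules. Hepatocytes secrete them into blood, the kidney passes them into urine, and there they release volatile pheromones slowly and act as scent signals themselves. In adult mice they are more abundant in males, where pulses of growth hormone acting through the receptor Ghr and the transcription factor Stat5b keep the genes active. Mup20 encodes darcin, the male scent protein that draws females.

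All 7 genes lie on the minus strand of chromosome 4 within 2021 kb (GRCm38, the mm10 build, GENCODE M21 annotation), from Mup7 at chr4:60066469-60070475 to Mup3 at chr4:62083476-62087342. Between them in order lie Mup11 at chr4:60658466-60662411, Mup16 at chr4:61515592-61519531, Mup17 at chr4:61591929-61595871, Mup18 at chr4:61670177-61674136 and Mup20 at chr4:62050234-62054158. The annotation lists all 7 as protein-coding. Sequence before 5 of their starts is in the RefSeq promoter table, and 4 windows of 208 bases that end upstream of every annotated start of the gene are shown because the genes behind them differed most in level or in place within the liver lobule. Capitals mark ATCAAT or its reverse complement ATTGAT, the core letters bound by Onecut factors, chosen after the windows were read.
Mup3 (chr4:62087360-62087567, minus strand): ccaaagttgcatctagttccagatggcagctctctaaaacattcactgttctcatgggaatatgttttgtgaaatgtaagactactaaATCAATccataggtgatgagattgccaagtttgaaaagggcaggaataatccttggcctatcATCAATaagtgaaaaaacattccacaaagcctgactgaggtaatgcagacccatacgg
Mup11 (chr4:60662438-60662645, minus strand): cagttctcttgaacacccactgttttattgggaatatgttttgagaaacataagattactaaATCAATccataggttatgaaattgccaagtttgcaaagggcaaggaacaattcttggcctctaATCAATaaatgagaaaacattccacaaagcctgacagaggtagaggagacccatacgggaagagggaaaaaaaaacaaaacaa
Mup17 (chr4:61595875-61596082, minus strand): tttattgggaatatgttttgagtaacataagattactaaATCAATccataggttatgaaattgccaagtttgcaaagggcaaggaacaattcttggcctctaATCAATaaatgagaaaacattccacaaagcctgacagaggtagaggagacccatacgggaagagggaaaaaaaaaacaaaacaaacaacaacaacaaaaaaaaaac
Mup18 (chr4:61674137-61674344, minus strand): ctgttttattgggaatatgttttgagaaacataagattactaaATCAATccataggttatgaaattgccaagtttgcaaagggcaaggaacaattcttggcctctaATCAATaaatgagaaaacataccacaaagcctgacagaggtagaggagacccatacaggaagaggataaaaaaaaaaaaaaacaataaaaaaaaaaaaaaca
Each of these 4 windows held the letters at 2 places, and the window of Mup7 held them at 1. The Mup7 window lies further upstream and aligned with the Mup11 window over 102 bases (99.0% identical). It ends before the stretch that holds the second place in the others, so it does not show whether Mup7 lacks it. On either strand they occur in 5.98% of 32851 RefSeq windows of the same length, and at 2 or more places in 0.426%. The windows share ancestry, so their matches are not separate observations. The Stat5 letters TTCNNNGAA (5.98% of all windows), the C/EBP letters TTGCNNAA (8.38%) and the Hnf4 letters CAAAGTCCA (0.307%) occurred in none of the 5 windows of these genes on either strand. The Mup11 and Mup17 windows were identical at 98.9% of 186 aligned bases, and the Mup3 window matched the Mup11 window at 85.8% of 183.

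Likeness between the transcripts limits how reads can be assigned to a gene. Over the last 500 bases of the longest annotated transcript, where this chemistry reads, pairs among Mup11, Mup16, Mup17 and Mup18 were identical at 98.2 to 99.6% of bases. Mup20 matched Mup7 and these 4 at 83.7 to 91.1% and Mup3 matched the other 6 at 64.2 to 66.9%. Of the 411 possible stretches of 90 bases in that end, all were unique among Mup transcripts for Mup3 and Mup20, 268 for Mup17, 128 for Mup11, 65 each for Mup16 and Mup18, and 3 for Mup7. How the counting divided reads that fit several copies was not stated. Values of Mup7, Mup11, Mup16, Mup17 and Mup18 are therefore uncertain as values of single genes, as are their shares of the pool. The values of Mup3 and Mup20 are firmer in this respect. The sum is firmer only if shared reads were counted for some copy, since reads left out would be missing from it too.

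The 5 libraries held 80927744 to 136110607 UMIs in all. Adult hepatocytes had a median of 18527 UMIs in the control and 19562, 35432 and 22075 at 24, 48 and 96 h. Hepatocytes of the adult libraries shared 0 barcodes with each other, and P14 shared 2 with the control and 1 with the 48 h library. The 11 hepatocyte markers found in the tables summed to 59697 to 107877 counts per 1000000 (CPM, over the non-mitochondrial UMIs summed over hepatocytes) in the adult libraries. Alb, Apoa1 and Ttr are among these markers and also defined the cells, so the sum was partly set by that choice. Alb alone gave 19565 to 58855 CPM of it. Markers of other cells were summed in the same way. The level was 10.0 to 20.4 CPM for 8 endothelial genes, 0.967 to 7.66 for 8 macrophage genes, 6.56 to 30.9 for 9 T or NK cell genes and 4.03 to 11.2 for 6 stellate cell genes. The 4 neutrophil genes summed to 10.7 CPM in the control and 101, 188 and 21.2 CPM after surgery, with 3 of 3 that reached 5 CPM at least 4-fold higher at 24 and 48 h, where the Mup sum was lower. Their part in the Mup ratios was not tested. The 6 B cell genes summed to 218 CPM at 24 h, of which Ly6d gave 216. Of 5 cholangiocyte genes, which summed to 35.6 to 188 CPM, Krt19 was at 0 in all 4 adult libraries and Epcam in all but the 48 h library, at 0.048 CPM there. Nearly all of that sum came from Sox9 and Spp1. Sox9 stood at 18.0 CPM in the control and 33.8, 30.7 and 32.3 CPM at 24, 48 and 96 h. Spp1 stood at 17.6, 67.9, 14.1 and 156 CPM, at least 4-fold above control at 96 h. The source of this signal was not tested. Red cell genes summed to 325 to 761 CPM. In all 4 adult libraries Ddx3y, on the Y chromosome, stood at 112 to 140 CPM and Xist, made from the inactive X of females, at 0 to 0.0744 CPM.

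Mup transcripts made up a smaller part of the hepatocyte RNA at each time after surgery than in the control. Together the 7 genes reached 89386 CPM in the control, and 39524, 14886 and 13065 CPM at 24, 48 and 96 h. As a share of all non-mitochondrial UMIs this was 8.94%, 3.95%, 1.49% and 1.31%. The sum was 2.26-fold lower than control at 24 h (95% counting interval 2.26 to 2.27), 6.00-fold at 48 h (5.98 to 6.03) and 6.84-fold at 96 h (6.81 to 6.88). In molecules, a hepatocyte held a mean of 1287 Mup UMIs in the control and 659, 431 and 228 at the 3 times, with the depth per cell differing as given above. The larger steps came in the first 48 h. From 48 to 96 h the sum differed by 1.14-fold. CPM is a share of the captured RNA, so fewer Mup transcripts and more of all others cannot be told apart.

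**Figure D1:**
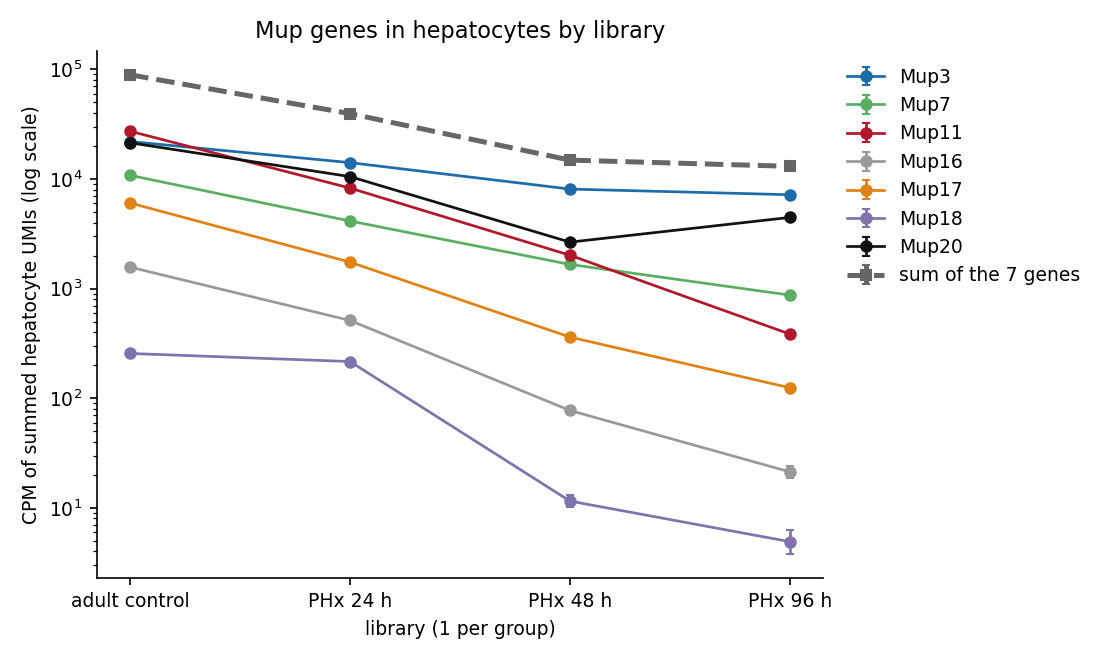
Level of each of the 7 Mup genes and of their sum in hepatocytes of the 4 adult libraries, in CPM on a log axis, with exact 95% Poisson intervals as bars (1 library per group, so the bars cover counting error only). The lines of Mup11, Mup16, Mup17 and Mup18 run steeply down to 96 h, that of Mup3 is the flattest, and Mup20 alone stands higher at 96 h than at 48 h.

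Mup3 and Mup20 kept the highest levels after surgery. Mup3 stood at 21979 CPM in the control and at 14120, 8100 and 7192 CPM at 24, 48 and 96 h. Its fold below control was 1.56 (1.55 to 1.56), 2.71 (2.70 to 2.73) and 3.06 (3.03 to 3.08), the smallest of the 7 genes at 48 and 96 h. Mup3 ranked 3rd of all non-mitochondrial genes by CPM in the control and 12th at 96 h. Mup20 stood at 21418, 10523, 2656 and 4464 CPM in the same order. Darcin transcripts thus were lowest at 48 h, 8.06-fold under control (7.99 to 8.14), and at 96 h were 4.80-fold under it (4.76 to 4.84). From 48 to 96 h Mup20 was 1.68-fold higher (1.66 to 1.70), and the other 6 genes were lower. In barcodes with hepatocyte transcripts but under 10% mitochondrial UMIs this direction turned, with Mup20 at 2903 CPM at 48 h and 1659 CPM at 96 h. Mup3 in the same barcodes was at 115%, 101% and 51.9% of control at 24, 48 and 96 h. Control barcodes of this kind held Mup3 at 8301 CPM, against 21979 CPM in control hepatocytes.

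Mup11 was the most abundant of the genes in the control, and at 96 h it stood below Mup3, Mup20 and Mup7. It stood at 27298 CPM in the control and at 8270, 2017 and 385 CPM at 24, 48 and 96 h, and its rank among genes went from 2nd to 406th. The fold below control was 3.30 (3.28 to 3.32), 13.5 (13.4 to 13.7) and 70.9 (69.0 to 72.9). Mup17 and Mup16, near-identical to it in sequence, followed a like course. Reads can fit several of these copies, so their courses are not separate observations. Mup17 stood at 6046, 1745, 361 and 125 CPM, which is 3.47-, 16.7- and 48.5-fold below control. Mup16 stood at 1571, 512, 77.3 and 21.3 CPM, which is 3.07-, 20.3- and 73.8-fold below control. For these 3 genes each later library was lower than the earlier one. The Mup17 values moved with the choice of cells. With Alb, Apoa1 and Ttr required to reach 2% of UMIs, Mup17 was 7.46-fold lower at 48 h and 15.7-fold at 96 h, and with at most 20% mitochondrial UMIs it was 138-fold lower at 96 h.

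Mup7, of which only 3 stretches of the transcript end are its own, lay between these courses. It stood at 10817 CPM in the control and at 4139, 1663 and 873 CPM at 24, 48 and 96 h, or 2.61-, 6.51- and 12.4-fold below control. Mup18 was the least abundant, at 256, 216, 11.5 and 4.91 CPM. At 24 h it differed from control by 1.19-fold (1.13 to 1.24), while at 48 h it was 22.2-fold lower (19.5 to 25.4) and at 96 h 52.1-fold lower (40.9 to 67.6). The largest step of Mup18 thus lay between 24 and 48 h. With at most 20% mitochondrial UMIs, Mup18 was 30.1-fold lower at 96 h, and with no lower limit on mitochondrial UMIs, Mup16 was 48.3-fold lower.

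Against all genes, a fold of 4 or more was rare. A gene was counted where it reached 5 CPM in either library, on log2 ratios of CPM with a pseudocount of 1 CPM. At 24 h, 0 of the 7 genes were at least 4-fold lower, where 1.05% of 9028 genes were. With at most 20% mitochondrial UMIs, Mup17 was 4.72-fold lower at 24 h and passed this fold. At 48 h, 6 of 7 were, beside 1.25% of 9035 genes, and at 96 h 6 of 7, beside 0.427% of 8890 genes. Mup3 was the exception at both times. None of the 7 was at least 4-fold higher, which 2.77%, 2.96% and 0.945% of genes were at 24, 48 and 96 h. The median log2 ratio of the 7 genes was -1.39, -3.76 and -5.44, beside -0.00086, -0.08 and 0.04 over all genes. The 7 were chosen on these ratios, so nothing is read from their place in this background.

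The make-up of the Mup pool was different at each time. Of the UMIs of all 21 Mup genes, Mup11 held 29.997% in the control and 20.3%, 13.1% and 2.87% at 24, 48 and 96 h. Mup3 held 24.2%, 34.6%, 52.8% and 53.7%. Mup20 held 23.5%, 25.8%, 17.3% and 33.3%. The Mup11 share was lower and the Mup3 share higher at each later time. Mup7 held 11.9%, 10.1%, 10.8% and 6.51%, and Mup17 6.64%, 4.28%, 2.35% and 0.93%. Counted by cell, at 5000 UMIs drawn from each, Mup11 was the leading member in 52.4% of control hepatocytes, Mup20 in 30.5%, Mup3 in 9.62% and Mup17 in 6.59%. Mup3 led in 49.8% of cells at 24 h, 88.9% at 48 h and 78.6% at 96 h. Mup11 led in 25.1%, 7.37% and 0.389%, and Mup20 in 20.3%, 2.50% and 18.2%.

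**Figure D2:**
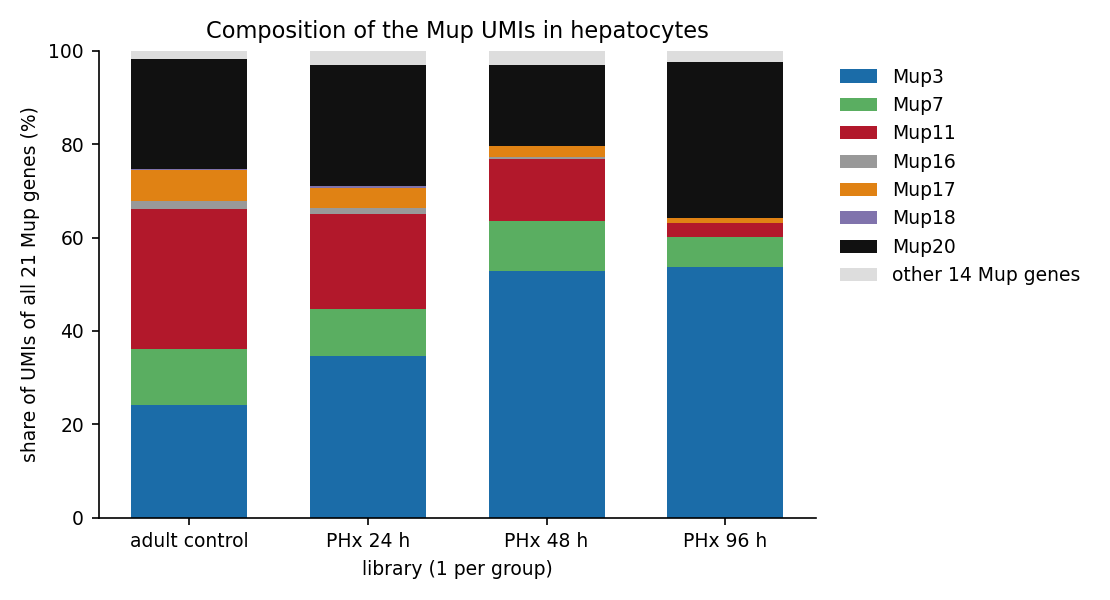
Share of the UMIs of all 21 Mup genes held by each of the 7 genes and by the other 14, in percent, for the 4 adult libraries. The Mup11 part narrows from 29.997% in the control to 2.87% at 96 h while the Mup3 part widens from 24.2% to 53.7%.

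The other 14 Mup genes carried little of the pool and did not all follow it. They summed to 1615 CPM in the control and 1267, 465 and 334 CPM after surgery, 1.28-, 3.47- and 4.83-fold below control. Among those that reached 5 CPM, 1 of 9 was at least 4-fold lower at 24 h, 4 of 8 at 48 h and 5 of 8 at 96 h. Mup9 (242, 102, 33.6 and 14.3 CPM), Mup12 (409, 162, 62.7 and 31.4 CPM) and Mup15 (34.7, 19.8, 7.06 and 1.86 CPM) were lower at each later time. Mup1 stood at 522, 426, 142 and 110 CPM, and Mup14 at 155, 153, 56.0 and 39.9 CPM, so both were near control at 24 h. Mup21, at the other edge of the cluster from Mup4, stood at 213, 376, 143 and 118 CPM, 1.76-fold above control at 24 h. Mup10 stood at 24.2, 19.9, 17.1 and 14.6 CPM. Mup1, Mup2, Mup10, Mup13, Mup14, Mup15 and Mup19 had no stretch of 90 bases of their own at the transcript end, so their values depend on how shared reads were assigned. Mup2 (4.21, 0.564, 0.432 and 2.46 CPM), Mup4 (5.33, 0.41, 0.096 and 0.0744) and Mup8 (2.85, 5.07, 1.20 and 0.893) were at or near the limit of 5 CPM. Mup5, Mup6, Mup13 and Mup19 were under 2 CPM in each adult library.

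Every adult hepatocyte held Mup UMIs, and levels were lower across nearly the whole population after surgery. Per cell, the median of the summed level was 92499 CPM in the control, with 66220 at the 10th and 128045 at the 90th percentile. The medians were 41262 CPM at 24 h, 15279 at 48 h and 12359 at 96 h. Of the cells, 22.0% at 24 h, 99.3% at 48 h and 96.4% at 96 h lay below the lowest control cell, at 33582 CPM, and 2 cells at 24 h and none later lay above the control median. Lymphocytes of the same libraries, which do not make these proteins, also carried Mup UMIs in 100%, 100%, 92.9% and 99.4% of cells at median depths of 5836.5, 4523, 5026 and 4203 UMIs. Presence of a Mup UMI in a cell is therefore not evidence of expression, and levels are compared instead. Lymphocytes held 16728, 2816, 567 and 1739 CPM of the 7 genes.

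Cells differed most from each other at 96 h. The 90th percentile of the summed level was 1.93 times the 10th in the control, 1.88 times at 24 h, 2.24 times at 48 h and 3.68 times at 96 h. With each cell thinned to 5000 UMIs and the Poisson part taken off, the coefficient of variation was 25.5%, 25.6%, 31.1% and 54.8%. The genes differed in how evenly cells held them. In the control this coefficient was 19.98% for Mup3, 33.2% for Mup7, 44.9% for Mup11, 46.9% for Mup20 and 209% for Mup17. Mup17 had a control median of 1412 CPM per cell but 20598 CPM at the 90th percentile, so the highest cells held far more of it than the median cell. At 96 h, 212 of 771 hepatocytes had no Mup11 UMI and 714 had no Mup18 UMI, while none lacked Mup3 or Mup20.

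**Figure D3:**
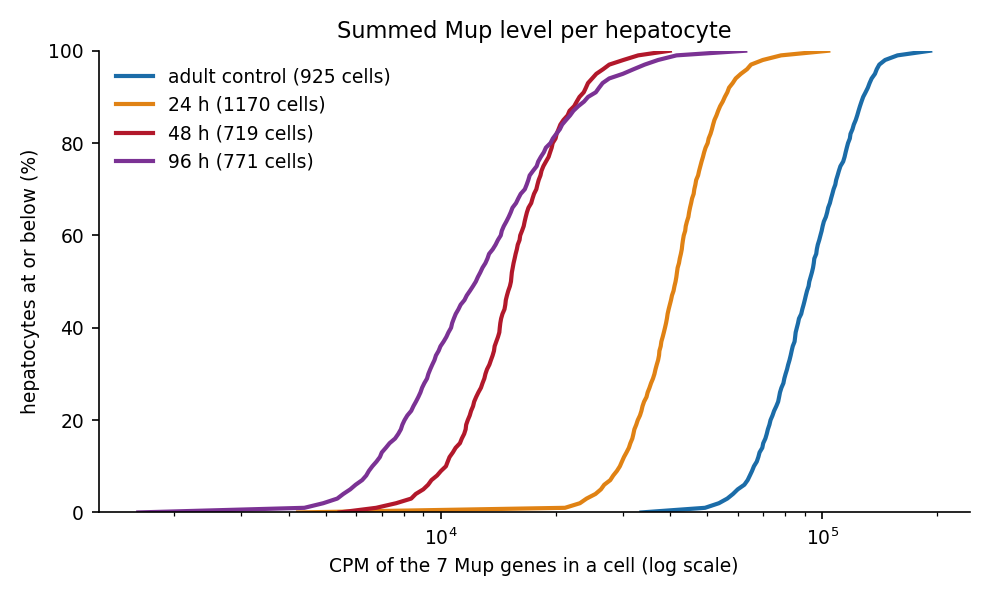
Cumulative share of hepatocytes (percent) at or below a summed level of the 7 Mup genes per cell (CPM, log axis), 1 curve per adult library. The curves move left from the control median of 92499 CPM to 15279 CPM at 48 h, and the 96 h curve is the least steep, with 6620 CPM at the 10th and 24335 CPM at the 90th percentile.

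Within the lobule the genes had opposite slopes. Blood flows through the liver lobule from the portal vein to the central vein, and hepatocytes near either end use different genes. Cells were scored by 12 pericentral and 12 periportal genes, none a Mup gene, as log2 of their UMI ratio at 5000 UMIs per cell, and each library was divided by score into 3 equal sets and, separately, into 10. The periportal and pericentral ends below are the outer of the 3 sets. Glul, the glutamine synthetase made next to the central vein, stood at 43.7 CPM in the periportal and 561 in the pericentral end of the control, and Cyp2f2, a periportal enzyme, at 2811 and 482. Median depth differed between the ends by 18287 against 19271.5 UMIs in the control and by 19382 against 26163 at 96 h.

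Mup20 was higher toward the portal end, and Mup3 was lower at the pericentral end. In the control Mup20 stood at 28543 CPM in the periportal and 13605 in the pericentral end, a 2.10-fold gap, which was 2.35-fold at 24 h, 2.07-fold at 48 h and 3.19-fold at 96 h. At 96 h its values were 7377 and 2315 CPM. The Mup3 gap went the same way and was 1.14-fold in the control, 1.28-fold at 24 h, 1.38-fold at 48 h and 1.89-fold at 96 h. In the control Mup3 stood at 22980, 22894 and 20192 CPM in the periportal, middle and pericentral sets, so only the last was lower. Across cells, Spearman's rho with the score was -0.61, -0.64, -0.40 and -0.49 for Mup20 (925, 1170, 719 and 771 cells) and -0.14, -0.40, -0.40 and -0.57 for Mup3. Score and Mup counts come from the same thinned cells, so these rho are a description.

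Mup11, Mup16, Mup17 and Mup7 were higher toward the central vein. Mup17 stood at 1123 CPM in the periportal and 14779 in the pericentral end of the control, a 13.2-fold gap. In the 92 control cells of set 10 of 10, where Glul reached 1558 CPM, Mup17 was at 30697 CPM, above Mup11 at 30504, and in sets 1 to 7 it was at 896 to 1913 CPM. Its gap was 12.8-fold at 24 h, 7.72-fold at 48 h and 4.08-fold at 96 h. The periportal Mup17 CPM lay under that of empty droplets in each adult library (1123, 362, 110 and 56.9 CPM against 7035, 1039, 229 and 78.3). This compares shares and not amounts per barcode. A droplet held 1328 UMIs in the control and 795 at 96 h, against medians of 18287 and 19382 in periportal cells. The part of free RNA in these gaps was not tested. The Mup11 gap was 1.59-fold in the control and wider in later libraries, 4.17-fold at 24 h, 6.09-fold at 48 h and 10.6-fold at 96 h.

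Mup11 was further below control at the periportal than at the pericentral end at each time. At 24 h it stood at 3408 CPM there, 6.01-fold below the same end of the control, and at 14221 CPM in the pericentral end, 2.30-fold below. At 96 h it stood at 79.5 and 840 CPM, 258-fold and 38.9-fold below, with the periportal level under the 371 CPM of empty droplets in that library. In the outermost sets of 10 at 96 h, Mup11 stood at 66.9 CPM on the portal side and 1691 CPM on the central side. Mup7 stood at 9413 and 12402 CPM in the 2 ends of the control, a 1.32-fold gap, and at 528 and 1212 CPM at 96 h, a 2.30-fold gap, with 970 CPM in the droplets. Mup16 stood at 1098 and 2218 CPM in the control, a 2.02-fold gap, and at 17.4 and 25.9 CPM at 96 h, both under the 49.6 CPM of the droplets. The ends are set within each library, so a set need not hold cells of the same place in every library.

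The sum of the 7 genes was higher at the pericentral end in the control and lower there at 96 h. In the outermost sets of 10 it stood at 79071 and 104979 CPM in the control, 18046 and 18529 at 48 h, and 20078 and 10491 at 96 h, from the portal to the central side. It stood at 83871 CPM in the periportal and 96131 in the pericentral end of the control, and at 39025 and 43680 CPM at 24 h. At 48 h the ends held 15540 and 15644 CPM, and at 96 h 17880 and 9832 CPM. The sum at 96 h was 4.69-fold below control in the periportal and 9.78-fold below in the pericentral end. From 48 to 96 h the sum was higher at the periportal and lower at the pericentral end.

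**Figure D4:**
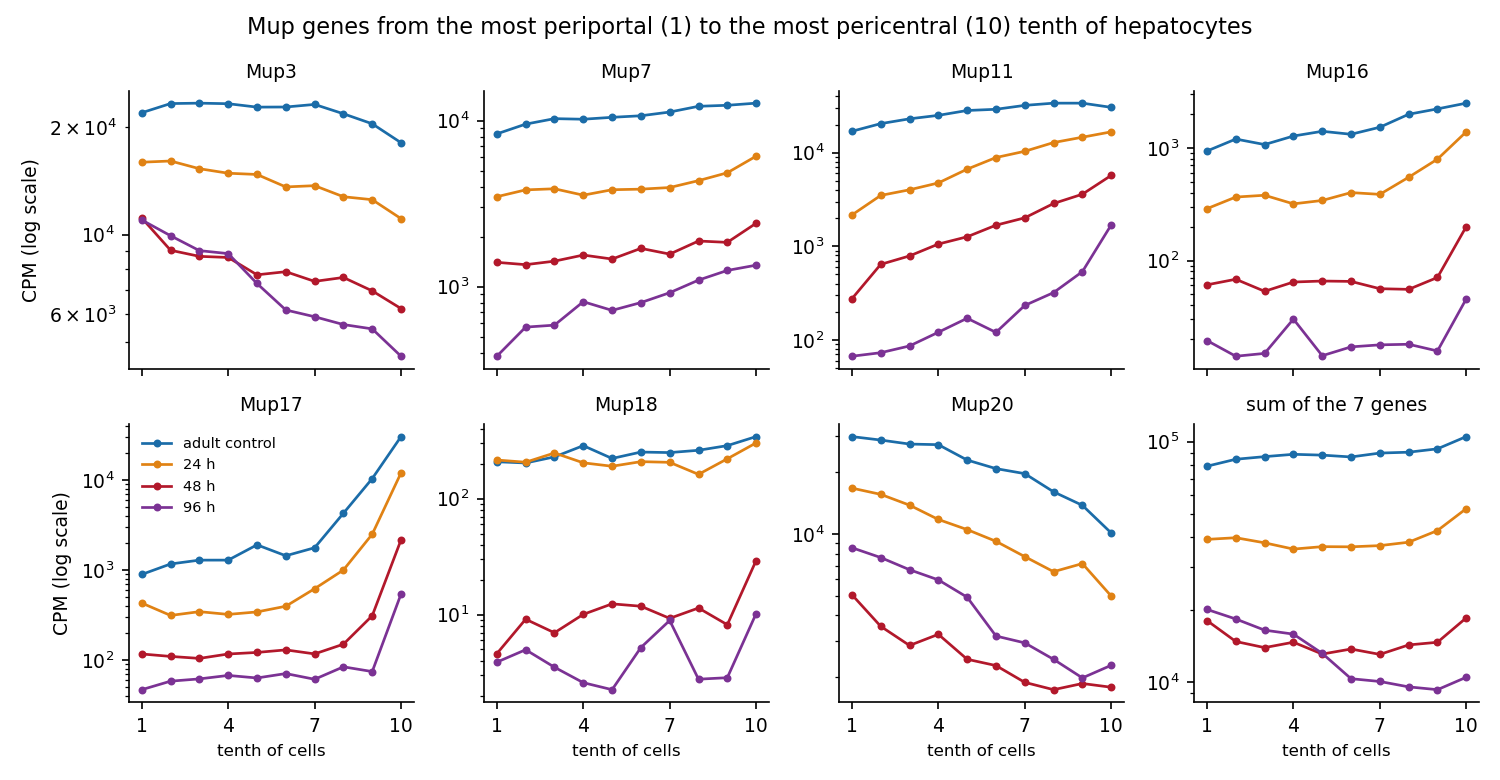
Level of each of the 7 Mup genes and of their sum (CPM, log axes that differ between panels) in 10 equal sets of hepatocytes ordered from the most periportal (1) to the most pericentral (10), for the 4 adult libraries. Mup20 slopes down toward the pericentral sets, as does Mup3 after surgery, while control Mup3 goes down only in the last sets. Mup7 and Mup11 slope up. Mup17 is high in the last sets, reaching 30697 CPM in set 10 of the control and 543 CPM in set 10 at 96 h.

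From cell to cell, pairs of genes did not all follow their slopes in the lobule. At 5000 UMIs per cell, rho between Mup7 and Mup11 was 0.70 in the control and 0.48, 0.34 and 0.27 after surgery, and between Mup3 and Mup20 it was 0.22, 0.34, 0.33 and 0.53. Between Mup11 and Mup20 it was -0.24, -0.58, -0.33 and -0.18. Mup3, lower at the pericentral end, had positive rho in the control with Mup7 (0.40) and Mup11 (0.35), above that with Mup20. Its rho with Mup11 was -0.24, -0.25 and -0.20 after surgery. Mean UMIs per thinned cell in the control and at 24, 48 and 96 h were 44.6, 17.1, 7.02 and 3.47 for Mup7. For Mup11 they were 111, 36.2, 8.76 and 1.32, for Mup20 84.6, 39.7, 10.5 and 18.8, and for Mup3 86.0, 55.6, 32.5 and 29.1. Low counts carry more counting error, and its part in the differences of rho between libraries was not tested. The sum was also lower in deeper cells, with rho of -0.55, -0.39, -0.31 and -0.41 against the UMIs of a cell, and the part of depth in the other relations was not tested.

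Summed over the 7 genes, dividing cells held somewhat less Mup RNA than cells without division genes, with all 7 lower in them at 48 h but only Mup3 and Mup20 at all 3 times. Cells with at least 3 of 23 mitosis genes at 5000 UMIs numbered 169 at 24 h, 294 at 48 h and 79 at 96 h, and 4 in the control. Their Mup sum was 37557, 13681 and 10446 CPM at the 3 times, against 40276, 16383 and 14096 CPM in the 762, 301 and 590 cells with none of these genes. The interquartile ranges of the per-cell values overlapped at each time. Both kinds of cell were thus far below the control, where cells without mitosis genes held 89581 CPM. Dividing cells were deeper (25246, 41820 and 28208 UMIs against 18765, 31756 and 20930). Mup20 at 96 h stood at 3052 CPM in dividing cells and 5041 in the others, and Mup3 at 5490 and 7771 CPM. The other 5 genes were higher in dividing cells at 96 h, among them Mup11 (606 and 329 CPM), Mup17 (198 and 101) and Mup7 (1071 and 828), and at 24 h Mup17 stood at 2400 and 1540 CPM.

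RNA outside hepatocytes carried Mup transcripts too. Droplets on the plateau of empty barcodes held 76829 CPM of the 7 genes in the control and 18976, 9820 and 11209 CPM after surgery, at 1328, 670, 290 and 795 UMIs per droplet in all. At 96 h Mup16 stood at 49.6 CPM in the empty droplets and 21.3 in hepatocytes, Mup18 at 5.36 and 4.91, and Mup7 at 970 and 873. Their shares were thus no higher in hepatocytes than in free RNA. Mup11 stood at 371 CPM in the droplets and 385 in hepatocytes at 96 h, and Mup3 at 7058 and 7192 CPM, so their shares were nearly equal. CPM is a share, and a 96 h droplet held 795 UMIs against a median of 22075 in a hepatocyte. A like share therefore does not make the counts of a cell free RNA. Mup20 at 96 h stood at 2677 CPM in the droplets and 4464 in hepatocytes. In the control, Mup17 (7035 against 6046 CPM), Mup16 (1636 against 1571) and Mup18 (272 against 256) were also higher in the droplets than in hepatocytes. Subtracting the mean droplet from every cell left the summed log2 ratio at -1.17, -2.60 and -2.79. Barcodes with hepatocyte transcripts but under 10% mitochondrial UMIs, 150, 328, 176 and 684 of them, held a smaller gap. In the control these barcodes held 30335 CPM of the 7 genes, against 89386 CPM in hepatocytes, so the percentages that follow have a lower base. At 24, 48 and 96 h they held 23505, 14448 and 6852 CPM. Their sum was 77.5%, 47.6% and 22.6% of the control's such barcodes at 24, 48 and 96 h, and their Mup3 was 115%, 101% and 51.9%. Mup20 in them was 127%, 51.5% and 29.4%, and Mup18 was 116% at 24 h, so at that time 3 of the 7 genes were above control in these barcodes. Mup11 in them was 37.7%, 12.5% and 2.02%.

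P14 liver held almost no Mup RNA. In 2106 hepatocytes with a median of 38922.5 UMIs, the 7 genes gave 199 UMIs, or 3.08 CPM (2.67 to 3.54), of which Mup3 gave 158 and Mup20 36. Mup7 and Mup17 had 0 UMIs, which allows up to 0.0465 CPM. A UMI of the 7 genes was seen in 7.12% of cells, and in 0 of 158 lymphocytes at a median of 8072.5 UMIs, which allows a share of up to 1.90%. At 5000 UMIs per cell the hepatocyte share was 1.57%. Empty droplets held 5.52 CPM of the 7 genes, from 100 UMIs of these genes in all droplets together. Set beside the 3.08 CPM of hepatocytes, this compares shares and not amounts per barcode. A P14 droplet held 466 UMIs of all genes. A P14 hepatocyte held a median of 38922.5 UMIs of all genes and a mean of 0.0945 UMIs of the 7 genes. The part of free RNA in the P14 signal was not tested. The P14 library had 840 CPM of Xist and at most 0.0155 CPM of each of 4 Y-linked genes, the reverse of the adults, so age and sex cannot be told apart in that comparison.

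Most male-biased liver genes on a list of 14 stood below control at each time, 13 of 14. The list was chosen with earlier results known, and likeness to the Mup ratios supports no link. Of 2669 genes outside the family with at least 50 CPM in the control, the 5 whose 3 log2 ratios lay closest to those of the Mup sum were the heat shock protein gene Hsph1 (distance 0.663), Cyp7b1 (0.855), Elovl3 (0.898), Cyp4a12b (1.03) and Socs3 (1.16). Cyp7b1, an oxysterol hydroxylase, stood at 605, 220, 139 and 139 CPM. Elovl3, a fatty acid elongase, stood at 254, 69.2, 53.2 and 50.4 CPM. Of the 14 male-biased genes, which include Cyp7b1, Elovl3 and Cyp4a12b, 4 were at least 4-fold lower at 24 h, 8 at 48 h and 5 at 96 h, and none was at least 4-fold higher. Their median log2 ratio was -1.61, -2.18 and -1.46, beside -0.00086, -0.08 and 0.04 over all genes. Selenbp2 stood at 1259, 150, 161 and 566 CPM, Nudt7 at 1256, 475, 421 and 946 CPM, and Ugt2b38 at 59.6, 3.43, 0.864 and 5.43 CPM. Moxd1, a monooxygenase, stood at 115, 55.8 and 0.72 CPM and at 0 UMIs at 96 h, where 3 UMIs would be 0.223 CPM. Serpina1e stood at 13135, 6051, 9797 and 10977 CPM, and Gstp1, a glutathione transferase, was above control at each time (443, 594, 1195 and 1560 CPM). Gstp1, and Cish and Onecut1 below, were named after their values were seen. Of 22 female-biased genes, 12 were at 0 in the control, and the list summed to 17.3, 25.2, 30.4 and 73.4 CPM. Abcd2, a peroxisomal transporter, gave 51.1 CPM of the last.

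Most growth hormone signalling genes and known regulators of Mup genes stood below control, 19 of 22 with 5 CPM at 24 h, 19 at 48 h and 16 at 96 h. Of them, 4, 3 and 3 were at least 4-fold lower at 24, 48 and 96 h and 1, 1 and 0 higher, with a median log2 ratio of -0.61, -0.98 and -0.27. Over all genes the median was -0.00086, -0.08 and 0.04, and 1.05%, 1.25% and 0.427% were at least 4-fold lower. The receptor Ghr stood at 596, 252, 222 and 495 CPM. Cish, a feedback inhibitor that Stat5 induces, stood at 50.8, 10.5, 2.83 and 41.3 CPM, and the liver factor Hnf4a at 389, 337, 229.5 and 291 CPM. At 96 h the log2 ratios of Ghr, Cish and Hnf4a were -0.27, -0.29 and -0.42, and those of Bcl6, Socs1 and Socs3 were -3.01, -2.93 and -2.35. Bcl6, a repressor with higher levels in male liver, stood at 49.0, 10.0, 18.7 and 5.21 CPM, and Socs3, an inhibitor of cytokine signals, at 69.7, 40.4, 22.5 and 12.9 CPM. Socs1, of the same family, stood at 9.99, 0.307, 0.48 and 0.446 CPM. Onecut1, a liver factor of the family whose letters are marked above, stood at 19.0, 6.87, 7.06 and 56.4 CPM, and Igf1, made on growth hormone signals, at 1083, 1218, 988 and 1411 CPM.

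Genes of other secreted liver proteins were mostly within 4-fold of control or above it. Of 18 abundant secreted proteins, none was 4-fold lower or higher at any time, and their median log2 ratio was -0.14, 0.04 and 0.27. Below control stood 9, 8 and 5 of them at 24, 48 and 96 h. Of 15 acute-phase genes, made in inflammation, 7 were at least 4-fold higher at 24 h and 7 at 48 h, and none at 96 h, with medians of 1.29, 1.80 and -0.04. Of the other lipocalins with 5 CPM, 4 of 9 were at least 4-fold higher at 24 h, 3 of 7 at 48 h and 0 of 7 at 96 h. All of these higher genes were Lcn2 or Orm genes. Those at 48 h, and most at 24 h, are also on the acute-phase list, so the counts of these lists overlap. Lcn2, which binds bacterial siderophores, stood at 72.3, 4874, 3307 and 229 CPM, and Orm1, a plasma carrier, at 1520, 10889, 14114 and 2205 CPM. Rbp4, the retinol carrier, stood at 4731, 3464, 3809 and 5151 CPM. The acute-phase median was thus near the control at 96 h, where the Mup sum stood 6.84-fold below it. Single acute-phase genes were spread around that median, with 8 of 15 below control. Their log2 ratios at 96 h ran from -1.63 for Saa3 to 1.65 for Lcn2.

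**Figure D5:**
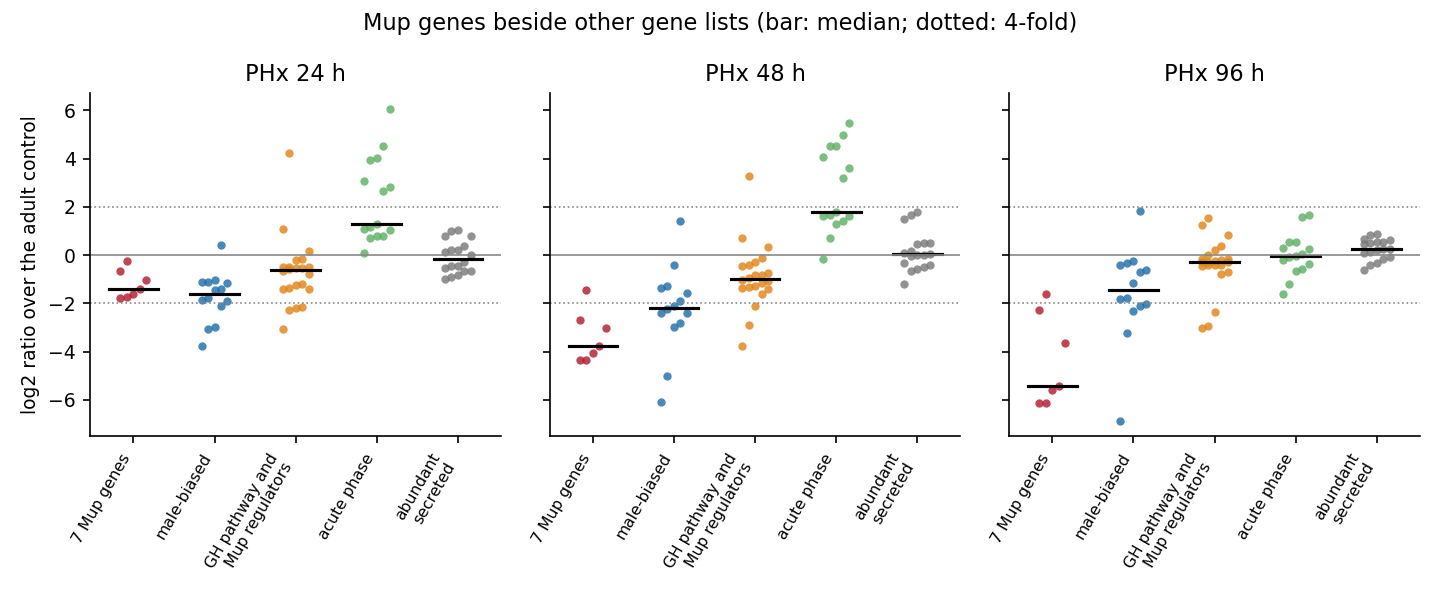
Log2 ratio over the adult control for the 7 Mup genes and for the genes of 4 lists that reached 5 CPM in either library, with a panel for each time after PHx, 1 point per gene, the median as a bar and a 4-fold difference as dotted lines. The Mup median goes from -1.39 at 24 h to -5.44 at 96 h, while the acute-phase median goes from 1.29 to -0.04.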

How the data were processed

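Single-cell RNA sequencing of liver cells was analysed in 5 libraries, 1 per group. The authors' deposited matrices hold raw UMI counts per gene and barcode, unfiltered, and per the file headers they were written by software version 3.0.2. Per the submitters' processing notes, bcl2fastq 2.17.1.14, Cell Ranger and Seurat 3.1 were used with build mm10; the handling of reads that fit several genes was not given in the sources used here. Counts were summed over the hepatocytes defined in the report and divided by non-mitochondrial UMIs (CPM). Ratios are log2 with a pseudocount of 1 CPM, among genes with 5 CPM in either library. Intervals are exact at 95%, and a count of 0 is read as up to 3 counts. Lymphocytes were other barcodes with at least 1000 UMIs, under 10% mitochondrial UMIs and 3 T, NK or B cell markers, and empty droplets those ranked 20001 to 60000 by UMIs. No doublet caller was run. All Mup genes with 3 or more counts in a library were named, at most 6 genes per list, those with the highest control CPM or furthest from it at 96 h, and the 5 genes outside the family nearest to its sum, with Gstp1, Cish and Onecut1 added after their values were seen. The genes and lists were chosen with earlier results of these data known. Tools were Python 3.11.15, numpy 2.4.6, pandas 2.3.3, SciPy 1.17.1, Biopython 1.88, matplotlib 3.10.9, R 4.3.3 and edgeR 4.0.16 (for TMM factors alone), and the calculations were tested on simulated data. Alternatives varied the cell filters, the denominator, the scaling, thinning and free RNA.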

Additional observations from a re-analysis of the deposited data

How the results depend on the processing

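All 39 alternative values of the family sum and all 231 of single genes kept their direction, and no value of the sum moved by over 1.5-fold. Barcodes under 10% mitochondrial UMIs taken alone are not among these alternatives: in them the sum was 77.5%, 47.6% and 22.6% of control in place of 44.2%, 16.7% and 14.6%, and Mup3, Mup18 and Mup20 were above control at 24 h. Mup3 in these barcodes was also at 101% of control at 48 h. Moves of the sum beyond counting error are given in the order 24, 48 and 96 h. The log2 ratio of the sum, -1.18, -2.59 and -2.77, was -1.27, -2.71 and -2.89 with at most 20% mitochondrial UMIs, -1.20, -2.52 and -2.97 with no lower mitochondrial limit, -1.16, -2.56 and -2.77 with at least 10000 UMIs, and -1.18, -2.54 and -2.70 with Alb, Apoa1 and Ttr at 2%. It was -1.16, -2.54 and -2.84 without cells that held markers of another type or lay in the top 8% of UMIs, which left 86 of 719 cells at 48 h. It was -1.14 and -2.55 (24 and 48 h) over all UMIs, -1.25, -2.70 and -2.89 over UMIs without Mup genes, and -1.14, -2.50 and -2.82 with TMM factors. It was -2.57 and -2.72 (48 and 96 h) with cells thinned to 5000 UMIs, and -1.17, -2.60 and -2.79 with free RNA subtracted. In alternatives chosen after seeing the data, it was -1.16, -2.57 and -2.76 over all 21 Mup genes and -1.16, -2.60 and -2.90 as the median over cells. Single genes moved by over 1.5-fold in 5 values, those given in the report for Mup16, Mup17 and Mup18; the filter of at most 20% left 87 control and 53 96 h cells. With at most 20% mitochondrial UMIs, Mup17 was 4.72-fold lower at 24 h, past the fold of 4. With a filter of 50 CPM, genes at least 4-fold lower numbered 38, 57 and 19 in place of 95, 113 and 38, and higher 55, 81 and 14 in place of 250, 267 and 84. No paired analysis was possible because each group has 1 library. The cause of these moves was not tested. Depth limits Mup18 most, with 66 UMIs at 96 h.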
